A study of Pyrus syriaca and Pyrus pyrifolia and Pyrus communis with 12 samples.

Results

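miR159 and miR319 are a pair of related plant miRs, small RNAs of about the same sequence that arose from a common ancestor. The 5 rows of the count table described here are mdm-miR159a and mdm-miR159d, named after apple entries of miRBase, and fve-miR159b, fve-miR159c and fve-miR319, named after strawberry entries. They were taken by name from 355 mature miR sequences, of which 120 had at least 1 read. The table has 14 rows named miR159 or miR319, and the 5 are exactly those with more than 1 read, so that they have reads at all is no finding.

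Small RNA was sequenced from the stigma and from the fluid on its surface (the exudate) of 6 pear genotypes, to compare the miRs of both. The cultivated genotypes were Hosui and Shinsui of Pyrus pyrifolia and Spadona of P. communis, all grown at an altitude of 430 m. The wild genotypes were P. syriaca from Golan (900 m), Manara (450 m) and SASA (830 m). Branches were kept overnight in a growth room, and both tissues were sampled 12 h after anthesis without any other treatment. Exudate was rinsed off the stigmas of many flowers of a genotype, pooled into 1 sample because its volume is low. Each genotype gave 1 library per tissue, so a genotype served as the replicate. Species, origin and altitude of the wild and the cultivated pears cannot be told apart.

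In plants, a miR pairs with an mRNA over nearly its whole length, and the mRNA is then cut or less translated. In Arabidopsis, miR159 is known to silence GAMYB-like genes, MYB transcription factors that act in the gibberellin response of anthers and seeds. miR319 is known to silence TCP genes, transcription factors that restrain cell division in growing leaves and petals, although it can also pair with GAMYB-like mRNAs. Both families are old among land plants, and miR159 is among the abundant miRs of many flower tissues.

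The mature sequences are shown because the members differ by so few bases that the reads of one could be counted for another. They are written 5′ to 3′ with the seed, bases 2 to 8, in capitals.
mdm-miR159a: cUUGGAUUgaagggagcucc
mdm-miR159d: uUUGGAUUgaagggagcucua
fve-miR159b: aUUGGAUUgaagggagcucuc
fve-miR159c: aUUGGAUUgaagggagcuccc
fve-miR319: uUUGGACUgaagggagcuccu
mdm-miR319a: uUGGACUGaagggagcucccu
ppe-miR319a: uUGGACUGaagggagcuccc
The 4 miR159 sequences share the seed UUGGAUU, and no other row of the table has it. fve-miR319 has the seed UUGGACU, which no other row shares. All 5 members have the run UGAAGGGAGCUC at bases 8 to 19, so they differ only in the first base, base 7 and the last bases. mdm-miR159d has the sequence of Arabidopsis miR159a, as its list of 30 identical entries shows. fve-miR319 is listed with 8 identical miR319 entries and 1 entry that carries the name miR159.

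With positions counted from 1 at the 5′ end, mdm-miR159a and fve-miR159c differ by C1A over the bases of the shorter one, and fve-miR159b and fve-miR159c by U20C. mdm-miR159a and mdm-miR159d differ by C1U and C20U, and mdm-miR159d and fve-miR319 by U7C, U20C and A21U. Reads were assigned with up to 7% mismatches, and 2 of the 10 pairs of members differ by no more than that. These pairs are mdm-miR159a with fve-miR159c and fve-miR159b with fve-miR159c. The study also allowed an offset and partial overlap in the assignment, and it kept reads shorter than these sequences. The miR159 members share the seed, bases 2 to 8, and bases 8 to 19, so a short read from there would match all 4. Whether reads of a member were counted for another was not tested.

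The annotation gives each row a precursor. mdm-miR159a comes from mdm-MIR159a (MDC026449.10, 321 to 489, minus strand) and mdm-miR159d from mdm-MIR159d (MDC001900.112, 17252 to 17462, plus strand). fve-miR159b comes from fve-MIR159b (LG7, 2338697 to 2338882, minus strand), fve-miR159c from fve-MIR159c (LG6, 2332525 to 2332740, plus strand) and fve-miR319 from fve-MIR319 (LG1, 2094279 to 2094390, plus strand). These are positions in the apple and strawberry genomes. The genome builds behind these coordinates are not given in the sources used here.

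The miR reads per library numbered 27 to 176 in exudates and 199 to 1777 in stigmas. Values are given as reads and as a share of all miR reads of the library. With 3 reads taken as the limit for a count of 0, an undetected miR may hold up to 1.70% of the deepest exudate library (Manara) and up to 11.1% of the shallowest (SASA). For stigma libraries the limit was 0.169% to 1.51%. Intervals are 95% Wilson intervals, and they and the limits cover counting error only. mdm-miR482d and mdm-miR164b together took 36.6% to 72.1% of the stigma reads, so every other share moves with them.

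In stigmas the 5 members gave 228 of 5276 reads, and their summed share was 4.09% ± 2.56 (SD, n = 6). Among cultivated pears it was 2.97% (Hosui), 4.02% (Shinsui) and 0.977% (Spadona), and among wild pears 3.38% (Golan), 4.50% (Manara) and 8.69% (SASA). SASA was the highest (interval 6.92% to 10.9%) and did not overlap Manara, the next (3.63% to 5.57%), although it overlapped the shallow Shinsui library (2.05% to 7.73%). From Manara down to Spadona (0.418% to 2.27%) the intervals of neighbours overlapped. Without the reads of mdm-miR482d and mdm-miR164b, the summed share was 10.6%, 11.8%, 2.70%, 8.64%, 8.46% and 13.7% in the same order of genotypes. SASA and Spadona were again the highest and the lowest.

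In exudates the 5 members gave 6 of 422 reads, in 4 of 6 libraries. Hosui, Shinsui and Golan had 1 read each and Spadona had 3, whereas Manara and SASA had none. The summed share was 1.97% ± 2.27 (SD, n = 6). It reached 6.12% in Spadona, but with an interval of 2.10% to 16.5%.

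**Figure D1:**
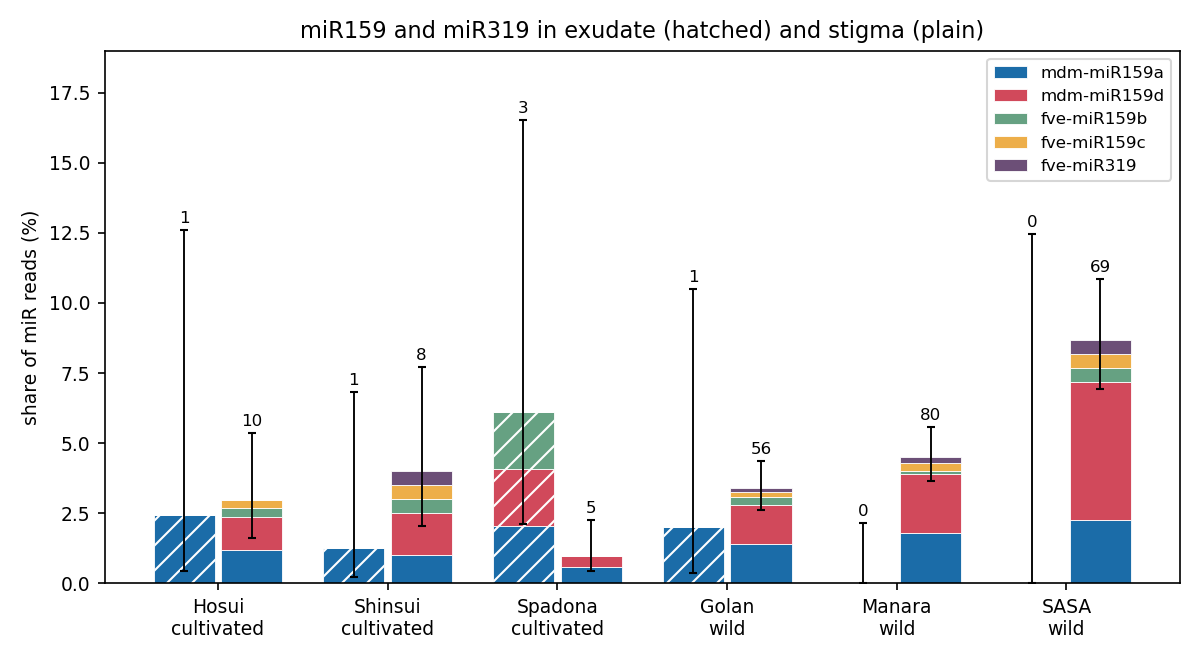
Share of miR reads (%) of the 5 members, stacked, in the exudate (hatched) and stigma (plain) library of each genotype, with the 95% Wilson interval of the sum and its number of reads above. The stigma of SASA has the highest stigma share (8.69%, 69 reads), and the exudate of Manara has no read, with an interval up to 2.14%.

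mdm-miR159d, which carries the sequence conserved widely among plants, was the member with the most stigma reads (108). Cultivated stigmas held 4 (Hosui), 3 (Shinsui) and 2 (Spadona) of them, and wild stigmas 23 (Golan), 37 (Manara) and 39 (SASA). These were shares of 1.19%, 1.51%, 0.391%, 1.39%, 2.08% and 4.91%, with a mean of 1.91% ± 1.57 (SD, n = 6). SASA stood above the other 5 genotypes, although its interval (3.61% to 6.64%) overlapped that of the shallow Shinsui library (0.514% to 4.34%). The mean share ranked 9 among all miRs of the stigma. In exudates mdm-miR159d had a single read, in Spadona.

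mdm-miR159a had 82 stigma reads and was found in all 6 stigmas. It had 4, 2, 3, 23, 32 and 18 reads in Hosui, Shinsui, Spadona, Golan, Manara and SASA, or 1.19%, 1.01%, 0.586%, 1.39%, 1.80% and 2.27%. Its mean of 1.37% ± 0.595 (SD, n = 6) ranked 10, next to mdm-miR159d, with a smaller SD between genotypes. It was also the member found most widely in exudates, with 1 read in each of Hosui, Shinsui, Spadona and Golan and none in Manara or SASA.

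The 3 strawberry members were rare. In the order Hosui, Shinsui, Spadona, Golan, Manara, SASA, fve-miR159b had 1, 1, 0, 5, 2 and 4 stigma reads, and its only exudate read was in Spadona. fve-miR159c had 1, 1, 0, 3, 5 and 4 stigma reads in the same order, and no exudate read. fve-miR319, the only miR319 of the 5, had 0, 1, 0, 2, 4 and 4, and no exudate read. Their mean stigma shares were 0.286% ± 0.203, 0.294% ± 0.193 and 0.225% ± 0.231 (SD, n = 6), which do not differ beyond their spread. None of the 3 had a read in the stigma of Spadona, where a miR without a read can hold up to 0.586%.

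The table has 9 other rows named miR159 or miR319. Of these only mdm-miR319c-3p had a read, 1 in the stigma of Manara. mdm-miR319a and ppe-miR319a, the forms listed with the most identical miR319 entries of other plants (36 and 26), had none in 12 libraries. Both share a run of 19 bases with fve-miR319, shifted by 1 base, and therefore have another seed (UGGACUG). Whether a read of one form was counted for the other was not tested.

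By the rule of the study, a miR was present with at least 2 reads in a library. All 5 members were present in stigmas, which their choice nearly fixed, and none in exudates, against 71 and 28 of all miRs. With 1 read as the minimum, 3 members were found in exudates, mdm-miR159a, mdm-miR159d and fve-miR159b. In P. syriaca all 5 were present in stigmas. In P. pyrifolia and in P. communis only mdm-miR159a and mdm-miR159d were, in libraries of 199 to 512 reads. The same rule passed 71 of all miRs for the wild stigmas, 26 for the stigma of Spadona and 16 for those of Hosui and Shinsui.

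**Figure D2:**
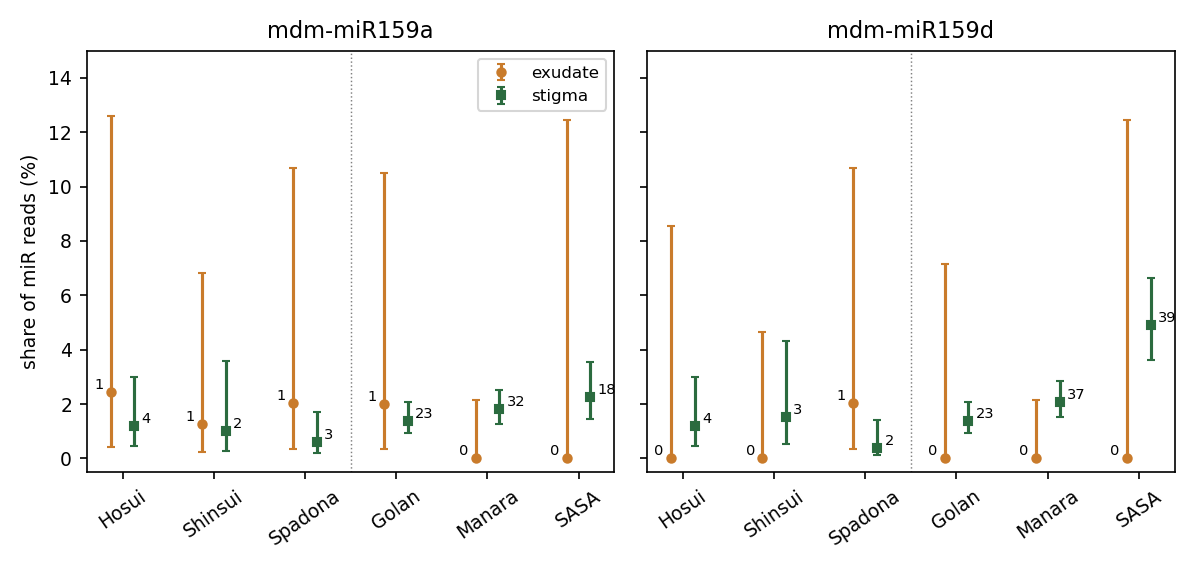
Share of miR reads (%) of mdm-miR159a (left) and mdm-miR159d (right) in exudate (circles) and stigma (squares) of each genotype, with 95% Wilson intervals and the number of reads beside each point. A dotted line separates cultivated from wild pears. mdm-miR159d stands highest in the stigma of SASA (4.91%), and both have 0 reads in the exudate of Manara, with an interval up to 2.14%.

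The first comparison asked whether the members took a different share of the exudate than of the stigma. mdm-miR159d was lower in the exudate in 5 of 6 genotypes and mdm-miR159a in 2 of 6. Neither passed edgeR with library totals, nor the sign-flip test, which over 6 genotypes could hardly pass any miR after adjustment. If the exudates held the members at the share of their own stigma, 16.8 reads of the 5 would have been counted, and 6 were. For mdm-miR159d the numbers were 7.55 and 1, and for mdm-miR159a 6.04 and 4. For the 3 strawberry members the same calculation gave at most 1.24 reads each, so the depth could not show a difference.

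These counts varied between genotypes, and no test compared single genotypes. At the share of its stigma, the exudate of Manara would have held 7.92 reads of the 5 members and it had none, with 3.66 for mdm-miR159d and 3.17 for mdm-miR159a. Spadona was the other way, with 0.479 reads at the stigma share and 3 counted. Shinsui had 1 read against 3.18, SASA 0 against 2.35, Golan 1 against 1.69 and Hosui 1 against 1.22. The stigma shares of mdm-miR159a and mdm-miR159d in Manara (1.80% and 2.08%) lay above the limit of 3 reads for the exudate (1.70%) but below the Wilson bound of the same 0 reads (2.14%). For each single member the intervals of exudate and stigma overlapped in every genotype, whereas for the sum of the 5 those of Manara did not (up to 2.14% against 3.63% to 5.57%).

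**Figure D3:**
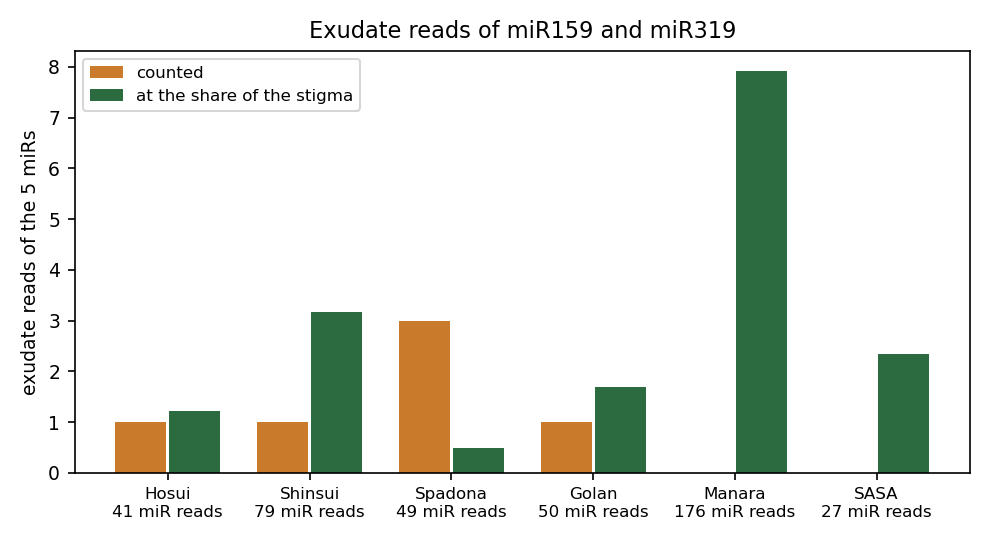
Reads of the 5 members counted in each exudate library (left bars) and the number the library would hold at the share of the same genotype's stigma (right bars), with the library's miR reads under each name. Manara has 0 against 7.92 and Spadona 3 against 0.479.

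Over the 6 genotypes, the share of mdm-miR159d in the exudate minus that in the stigma was -1.57 percentage points ± 2.10 (SD, n = 6). The exact sign-flip test, two-sided, gave p = 0.156, and an adjusted p of 0.365 over the 35 miRs with at least 10 reads. The smallest p this test allows is 0.0312. The miRs at that p had an adjusted p of 0.273, so after adjustment this exact test could hardly pass any miR. The difference was -0.903 points without SASA and -3.57 with mdm-miR482d and mdm-miR164b left out of the total. For mdm-miR159a the difference was -0.0813 points ± 1.58 (SD, n = 6), with the exudate higher in 4 genotypes and an adjusted p of 0.991 by the same exact test. It was higher in the exudate of the 3 cultivated pears and of Golan, and lower in Manara and SASA, the libraries without a read. This tally depended on the scaling. Without mdm-miR482d and mdm-miR164b the exudate was higher in 3 genotypes and lower in 3 (mean difference -0.732 points), and with TMM factors it was lower in 5 of 6 (-1.26 points).

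fve-miR159c and fve-miR319 had no exudate read, so their differences could only be 0 or below (adjusted p = 0.365 for both, exact sign-flip test), and their stigma shares lay within the limit for a count of 0 in all 6 exudates. fve-miR159b was lower in 5 of 6, although its single read in Spadona made the mean higher (0.340% against 0.286%, adjusted p = 1, exact sign-flip test). The test passed 0.0% of the 35 miRs after adjustment, which its smallest p nearly fixed. Of these miRs, 4 had an unadjusted p under 0.05 by this exact test, none of them a member. In all 6 genotypes 3 of the 35 (8.57%) were lower in the exudate. No member was among those. The mean was lower in the exudate for 4 of the 5 members and for 18 of all 35 miRs (51.4%). Of these members fve-miR159c and fve-miR319 could not have been higher.

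In the count model (edgeR, quasi-likelihood test with Benjamini-Hochberg adjustment, library totals as offsets) the log2 fold change of exudate against stigma was -2.86 (SE 1.16) for mdm-miR159d, with an unadjusted p of 0.0145 and an adjusted p of 0.127. It was -0.40 (SE 0.89) for mdm-miR159a, with an adjusted p of 0.726, and moved to -1.59 with TMM factors and -1.65 in DESeq2 without a call. The SE given with an edgeR value is approximate. It was back-calculated as the absolute log2 fold change over the square root of the F statistic of the test. None of the 5 members was called, and the test called 1 of 35 miRs, mdm-miR169a, which is 2.86% of those tested. With the genotype as a replicate block edgeR called 2, again no member, and gave mdm-miR159d an adjusted p of 0.146. mdm-miR159d did pass at an adjusted p of 0.00111 with TMM factors in edgeR, 0.00903 in DESeq2, and 0.0190 in edgeR without Spadona, which held its only exudate read. The TMM factors ranged from 0.417 to 4.34, rest on few reads, and moved the median log2 fold change of all 35 miRs from -0.29 to -1.43. DESeq2 put that median at -0.60.

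Summed over libraries, mdm-miR159d made up 0.237% of exudate and 2.05% of stigma reads, a ratio of 0.116 with an exact 95% interval of 0.00290 to 0.659. For mdm-miR159a the ratio was 0.610 (0.162 to 1.62), and for fve-miR159b it was 0.962 (0.0226 to 6.40). The interval covers the counting of these reads alone and leaves out the spread between genotypes.

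miRs of families known in Arabidopsis to regulate other transcription factors, such as miR156, miR164, miR166, miR169, miR172 and miR396, were counted beside the members. They were taken by family number, so rows from either arm of a precursor are among them. Of 70 such rows, 44 had a read and 10 had enough for the test. These 10 were of the families miR164, miR169 and miR396 only, most of them miR396, so the other families were not tested. By edgeR 8 of these 10 were lower in the exudate, with 1 called, mdm-miR169a. The 2 higher were fve-miR396a-3p and fve-miR396b-3p, whose own role in regulating transcription factors was not checked. All 5 members had a log2 fold change below 0. For fve-miR159c and fve-miR319, without an exudate read, no other sign was possible. fve-miR159b was below 0 by so little (-0.06) that it turned higher with the replicate block or without Hosui, Shinsui, Manara or SASA. Of all 35 miRs 20 were below 0. The median log2 fold change was -1.99 for these 10, of which mdm-miR164a, mdm-miR396a and ppe-miR396a had no exudate read, and -0.29 for all 35. No median is given for the members because 2 of the 5 had no exudate read. The median difference in share was -0.225 points for the 5 members and -0.289 for these 10, both set by miRs without an exudate read. It was -0.0813 for all 35. No test compared these lists. Within the stigma, the members' reads equalled 11.2%, 34.8%, 1.82%, 5.02%, 8.20% and 18.2% of the reads of these families and the members together, in the order used above. These families took 7.54% (Shinsui) to 63.9% (Golan) of the stigma reads. They include mdm-miR164b, at 1.01% to 54.3% of a stigma library, so these values move with that miR.

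The second comparison set the stigmas of the wild P. syriaca against those of the cultivated pears. mdm-miR159a was higher in every wild stigma than in every cultivated one, at 1.82% ± 0.440 against 0.926% ± 0.308 (SD, n = 3 each), a ratio of 1.96. The exact permutation test, two-sided, gave p = 0.1, the smallest that 3 against 3 allows, and an adjusted p of 0.333 over 30 miRs. The same separation held for 7 of the 30 miRs (23.3%), so it was not particular to mdm-miR159a. It ended when mdm-miR482d and mdm-miR164b were left out of the total. mdm-miR159a then stood at 3.50% ± 0.106 in wild and 2.94% ± 1.32 in cultivated stigmas, with overlap (p = 0.7, exact permutation test). Of 28 miRs, 4 (14.3%) were then higher in every wild stigma than in every cultivated one.

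mdm-miR159d was 2.79% ± 1.87 in wild and 1.03% ± 0.575 in cultivated stigmas (SD, n = 3 each), a ratio of 2.72. The difference of 1.77 points was 0.707 without SASA. Shinsui at 1.51% stood above Golan at 1.39%, so the groups overlapped, and the exact permutation test gave p = 0.2 and an adjusted p of 0.429. Without mdm-miR482d and mdm-miR164b the means were 5.07% and 3.25% (p = 0.6, exact permutation test). With TMM factors mdm-miR159a and mdm-miR159d were both higher in every wild stigma than in every cultivated one, as were 5 of all 30 miRs (16.7%).

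For the 3 strawberry members no difference could be shown at this depth. fve-miR159b was 0.306% in wild and 0.266% in cultivated stigmas (p = 0.7), fve-miR159c 0.322% and 0.266% (p = 0.9), and fve-miR319 0.283% and 0.168% (p = 0.5), each by the exact permutation test. The difference of fve-miR319, 0.116 points, was 0.0319 without Hosui or without Spadona and 0.283 without Shinsui, the only cultivated stigma in which it had a read. All 5 means were higher in wild stigmas, as were 25 of all 30 (83.3%). Without mdm-miR482d and mdm-miR164b the mean was higher in wild stigmas for 19 of 28 miRs (67.9%), among them mdm-miR159a, mdm-miR159d and fve-miR319, and lower for fve-miR159b and fve-miR159c. The cultivated libraries held 1 or 0 reads of each of these 3, against 2 to 5 in the wild ones, which were also deeper (794 to 1777 against 199 to 512 reads). The part of depth in this was not tested.

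**Figure D4:**
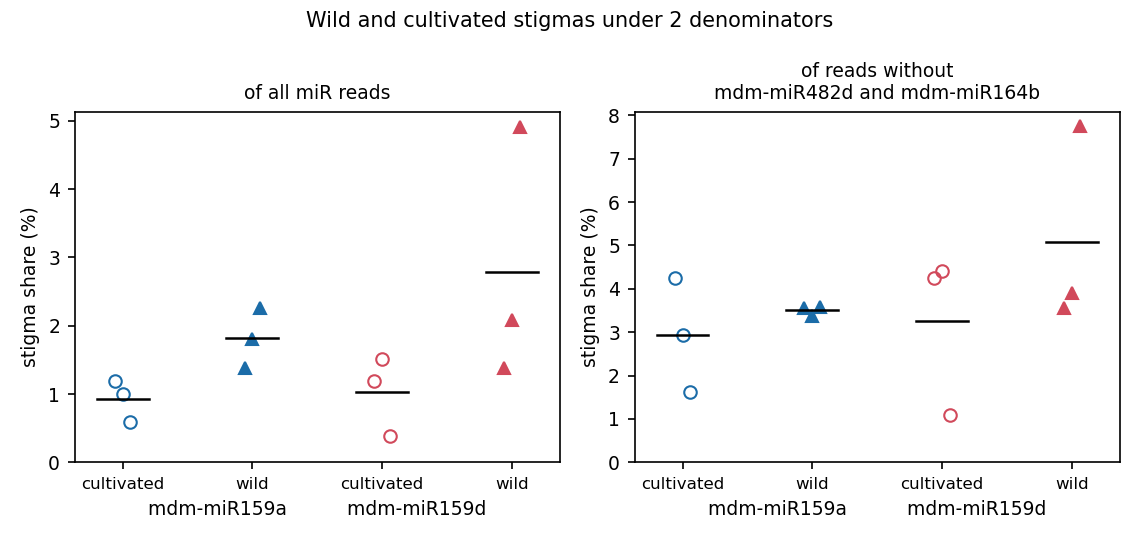
Stigma share (%) of mdm-miR159a (blue) and mdm-miR159d (red) in the 3 cultivated (open circles) and 3 wild (filled triangles) genotypes, of all miR reads (left) and of the reads without mdm-miR482d and mdm-miR164b (right), with a bar at each mean. mdm-miR159a separates the groups on the left (1.82% against 0.926%) and not on the right (3.50% against 2.94%).

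In edgeR the log2 fold change of wild against cultivated stigmas was 1.01 (SE 0.76, adjusted p = 0.370) for mdm-miR159a and 1.55 (SE 0.67, unadjusted p = 0.0230, adjusted p = 0.115) for mdm-miR159d. edgeR called 0.0% of the 30 miRs, 8 had an unadjusted p under 0.05, and DESeq2 called 2, neither of them a member. The value of mdm-miR159d was 0.94 without SASA and 1.03 without Spadona. The median log2 fold change was 1.01 for the 5 members and 1.12 for all 30 miRs, and TMM factors moved the latter to 0.67 and DESeq2 to 0.55.

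The 2 apple members can be compared within a library, where the total does not enter. Whether short reads that match both were counted for either was not tested. mdm-miR159d made up 50% (Hosui), 60% (Shinsui), 40% (Spadona), 50% (Golan), 53.6% (Manara) and 68.4% (SASA) of their joint stigma reads. Only the interval of SASA (55.5% to 79.0%) lay above an equal split. The mean was 57.3% ± 9.76 in wild and 50% ± 10 in cultivated stigmas (SD, n = 3 each), a difference of 7.35 points that did not exceed the spread (p = 0.5, exact permutation test). Leaving out 1 genotype moved it to between 1.81 (without SASA) and 12.3 points (without Shinsui), with 2.35 without Spadona.

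The miRs whose distribution over the 6 stigmas was most like that of mdm-miR159a were mdm-miR482a-3p (Bray-Curtis dissimilarity 0.0940), mdm-miR1511 (0.116) and fve-miR1511 (0.126), where 0 is an identical profile. For mdm-miR159d the closest was again mdm-miR482a-3p (0.141), before mdm-miR2118a (0.159) and, between them, ppe-miR482c-3p (0.155). The 2 apple members had a dissimilarity of 0.162 from each other, against a median of 0.271 from mdm-miR159a and of 0.364 from mdm-miR159d over the 25 other miRs. All of these profiles share the same 6 libraries and totals.

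Predicted targets were given for fve-miR159c and fve-miR319 only, in the table of stigma-specific miRs, those present in stigmas without any exudate read. It holds 163 pairings of 23 miRs with 120 Arabidopsis loci. The study discarded miRs present in a tissue whose maximum in the other was a single read. mdm-miR159a, mdm-miR159d and fve-miR159b fall under that rule, so their lack of a list does not mean that they lack targets. The table of exudate miRs holds no member, and none was present in exudates by the study's rule. fve-miR159c had 9 sites at 9 loci and fve-miR319 had 8 sites at 8 loci. Together they had 14 loci, none of which was given for another miR of the table. AT2G26950, AT3G11440 and AT5G06100 were in both lists.

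The site most often listed, a variant of it and a site private to each miR are shown to compare the pairing. They are written 5′ to 3′ as in the transcript. In the first 3 the capitals mark bases not in a Watson-Crick pair with fve-miR159c, and in the fourth with fve-miR319.
AT5G06100, bases 1161 to 1181: UggagcucccuucaUuccaau
AT4G37770, bases 827 to 847: UggagcucccuucaUuccaaG
AT2G46890, bases 453 to 473: UCgagUuUcUuucaauccaaA
AT3G33076, bases 3306 to 3326: aggaUcucccuucaUuccaaa
The first site stood in 7 of the 17 pairings, at 5 loci (AT2G26950, AT2G26960, AT3G11440, AT3G61740 and AT5G06100). fve-miR159c formed 19 Watson-Crick pairs of 21 with it, all but bases 7 and 21, and fve-miR319 formed 18, with base 1 also unpaired. The fourth site was given for fve-miR319 alone, at 4 loci (AT3G33076, AT3G33084, AT4G22415 and AT5G28335), with 19 pairs of 21. The site at AT2G46890 paired with the whole seed of fve-miR159c but had only 15 Watson-Crick pairs in all, with 3 G-U pairs.

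The members without a target list were aligned here to the same sites. On the first site, mdm-miR159a formed 18 pairs of 20 and mdm-miR159d and fve-miR159b 18 of 21. Base 7, at which fve-miR319 differs from the miR159 members, was unpaired in all 5. On the second site mdm-miR159a formed 19 pairs of 20, more than any of the others, since its first base pairs with the last base of that site. On the fourth site fve-miR319 formed 19 pairs and the miR159 members 16 or 17. A match of letters is a description and no measure of cleavage.

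**Figure D5:**
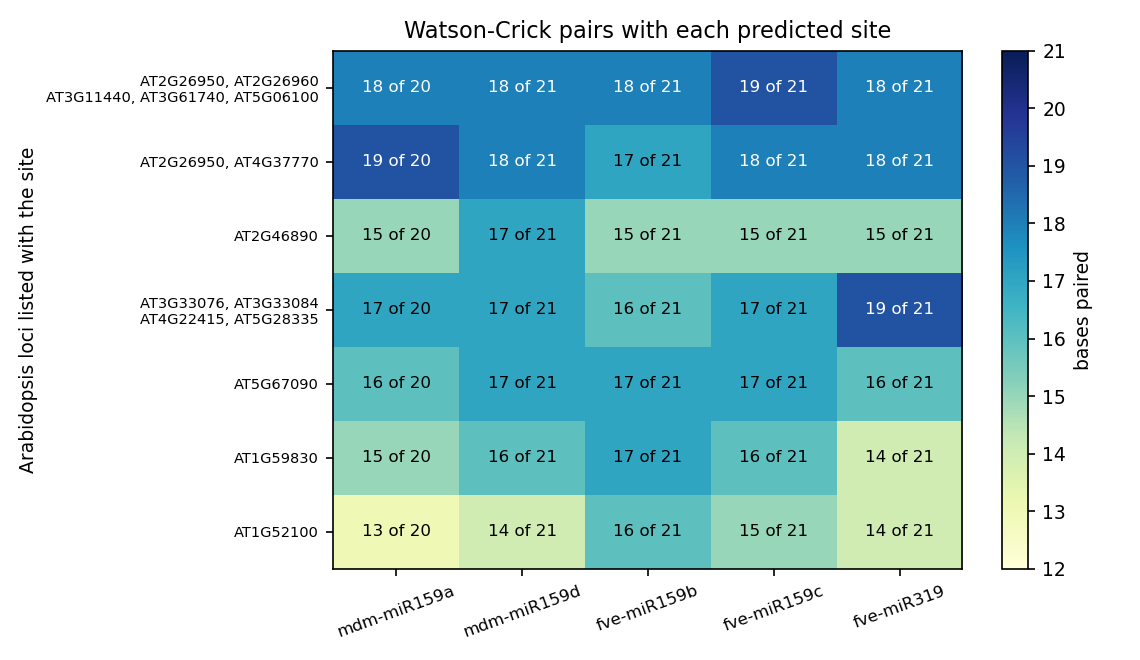
Number of bases in a Watson-Crick pair for each member (columns) on each of the 7 distinct predicted sites (rows, named by the Arabidopsis loci listed with the site), with darker colour for more pairs. The first row pairs at 18 or 19 bases with all 5 members, while the sites in the lowest rows pair at 13 to 17.

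The data pair no names with loci, so Arabidopsis loci were grouped from general knowledge. Of 8 loci held to be MYB targets of miR159, GAMYB-like genes and the MYB gene DUO1, 4 were among the members' loci. All 4 were listed for fve-miR159c and 3 for fve-miR319, and DUO1 was not among them. Of 5 loci held to be TCP targets of miR319, 0 were in either target table. The rest of the 14 loci belong to neither list. For the 4 sites given for both miRs, the listed loci agreed for 2. The site at bases 827 to 847 stood at AT4G37770 for fve-miR159c and at AT2G26950 for fve-miR319. That at bases 1155 to 1175 stood at AT2G26950 for fve-miR159c and at AT3G61740 for fve-miR319. At bases 1161 to 1181, where AT5G06100 was listed for both, AT2G26960 was listed for fve-miR159c only. The match of single sites to loci is therefore uncertain, and the counts of loci per site, list and term share this limit.

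Gene Ontology terms were given by the authors for the predicted targets of the stigma-specific miRs and, separately, of the exudate miRs. Of 49 terms for stigma-specific miRs, 46 contained a locus of fve-miR159c or fve-miR319, among them 33 of 34 biological processes. By locus, 9 of the 14 loci of these 2 miRs were in a term, against 101 of all 120 loci of stigma-specific miRs. AT5G06100 and AT3G11440 were each in all 46 terms that held a member's locus. AT2G26950 and AT2G26960 were in 34, AT3G61740 in 31 and AT4G37770 in 18. AT1G59830 was in 10, AT2G46890 in 6 and AT5G67090 in 3. The other 5 loci, including the 4 of the site private to fve-miR319, were in none. The terms with the most of these loci, 8, were broad ones such as metabolic process with 74 loci and cell part with 98. No term for exudate miRs held a locus of a member.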

How the data were processed

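The deposited values are whole-number counts of reads per mature miR in 12 libraries. The authors used Cutadapt 1.1 for trimming, FASTX 0.0.14 for filtering and miRExpress 2.0 for counting against apple, strawberry and peach miRs of miRBase 22, allowing 7% mismatches and averaging the counts of identical sequences. Targets came from psRNATarget on TAIR 10 transcripts. The p-values of the deposited Gene Ontology table, by the authors, and the pollen table were not used.

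Shares were taken of all miR reads. edgeR 4.0.16 in R 4.3.3 (quasi-likelihood test, library totals as offsets, miRs with at least 10 reads, FDR 0.05) was the count test, with DESeq2 1.42.0 as an alternative. Exact tests and Wilson intervals came from scipy 1.17.1 with pandas 2.3.3 and numpy 2.4.6 in Python 3.11.15, and figures from matplotlib 3.10.9. By the labels, exudate and stigma of a genotype share cultivar or population, which is the pairing used. The deviations of an exudate and its stigma from their tissue means correlated at -0.0587 to 0.589 over miRs. No 2 libraries were identical. Flowers were pooled, so p-values measure the spread between genotypes. The alternatives were TMM factors, other filters and tools, the genotype block, a total without mdm-miR482d and mdm-miR164b, other minimums for presence, P. syriaca alone, P. pyrifolia as the only cultivated species, and each genotype left out. The members and lists were chosen with earlier results of these data known. The 5 members are named in full, with other rows of the families that have a read and the 3 miRs most like each apple member. mdm-miR482d, mdm-miR164b and mdm-miR169a were named after their values were seen.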

Additional observations from a re-analysis of the deposited data

Results flagged for a closer look

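The share of mdm-miR159d in the exudate of Spadona, 2.04%, stood apart from the other 5 exudates, all at 0 reads, and so did that of fve-miR159b in the same library, also 2.04%. Each is a single read of 49. The share of mdm-miR159d in the stigma of SASA, 4.91%, stood above the other 5 stigmas with a gap of 0.626 of the whole range, just past Dixon's critical value for 6 samples, and rests on 39 of 794 reads. This flag is for the share of all miR reads. Without mdm-miR482d and mdm-miR164b the share was 7.75% in SASA, 4.41% in Shinsui, the next, and 1.08% in Spadona, the lowest. The counting intervals of SASA and Shinsui overlapped. Of 11 groups of 6 libraries examined 3 stood out. Chance flags about 1 in 20 groups of measured values, but in the 2 exudate groups a lone read among 0s always stands out, so that rate does not apply to them.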

How the results depend on the processing

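Exudates of 27 to 176 reads limit every statement on the exudate. In edgeR, exudate against stigma gave 7 calls with TMM factors, 6 with DESeq2, 4 with every miR that had a read, 0 with edgeR's own filter (no member left) and 2 with the replicate block, and 1 to 3 without each genotype in turn (2 without Spadona, 3 without Manara). mdm-miR159d was among the calls with TMM, with DESeq2 and without Spadona (log2 fold change -3.77, -3.39 and -6.57). The shares passed 0 miRs with the pairing, where the smallest p nearly fixed this, and 2 without the replicate block. edgeR on wild against cultivated stigmas gave 1 call with TMM, 2 with DESeq2, 1 with every miR that had a read, 2 against P. pyrifolia alone and 0 to 3 without each genotype (1 without Shinsui, 2 without Spadona, 3 without SASA), none of them a member. With 1 read as the minimum, 3 members were present in exudates. Signs turned for small differences in share, in percentage points. fve-miR159b in exudate against stigma became -0.124 without mdm-miR482d and mdm-miR164b and -0.154 with TMM, and ranged from -0.343 (without Spadona) to 0.165 over the genotypes left out. mdm-miR159a ranged there from -0.389 to 0.356, turning without Manara (0.263) and SASA (0.356), as did its edgeR value without Manara (range -0.80 to 0.28). Between wild and cultivated stigmas, fve-miR159b and fve-miR159c became -0.252 and -0.249 without mdm-miR482d and mdm-miR164b, and -0.0936 and -0.0776 against P. pyrifolia alone, that is without Spadona, which are also the lowest of their ranges over the genotypes left out (up to 0.158 and 0.174). Without SASA fve-miR159c was -0.0352. The causes were not tested. The planned stricter target score could not be run because the table used here has no score column. With at least 18 Watson-Crick pairs instead, a rule chosen after seeing the data, fve-miR159c had 5 loci and fve-miR319 had 8.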

Other observations

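The exudate share minus the stigma share, summed over the 5 members, averaged -4.86 percentage points in the 3 wild and 0.621 in the 3 cultivated genotypes (p = 0.2, exact permutation test, two-sided, which cannot go below 0.1). The single genotypes were at -0.528 (Hosui), -2.75 (Shinsui), 5.15 (Spadona), -1.38 (Golan), -4.50 (Manara) and -8.69 (SASA), so Spadona was the only one with a higher share in its exudate.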
